A study of Mus musculus with 9 samples.

Results

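The genes described here are the Kelch-BTB proteins whose names begin with Klhl or Kbtbd and a number, chosen by name alone from a deposited expression table of mouse tibialis anterior muscle. The table holds 43 of them among 23231 genes, 33 named Klhl and 10 named Kbtbd. A BTB domain at the front of such a protein binds cullin 3, a scaffold that also holds the RING protein Rbx1, and the Kelch repeats at the back hold the protein to be ubiquitylated, so each family member gives the same ligase another set of substrates. Several are best known from skeletal muscle: mutations in the human genes KLHL40, KLHL41 and KBTBD13 cause nemaline myopathy, a disease of the thin filaments of the sarcomere.

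The muscles came from C57BL/6 mice aged 6 months and had been electroporated with small interfering RNA (siRNA). The 9 libraries formed 3 groups of 3: Ubr4 siRNA construct 5, Ubr4 siRNA construct 7, and a non-targeting siRNA as control. All 3 groups thus share the strain, the age, the muscle and the electroporation, and no group without electroporation was among them. Ubr4 encodes a very large ubiquitin ligase outside the cullin family, and the series concerns ubiquitin ligases that set the size of muscle fibres. The labels do not say that libraries came from separate animals, so the p-values measure the spread between these samples; the share of fibres that took up siRNA is not given.

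The targeted gene checked the labels. Ubr4 stood at 3.61, 3.80 and 2.73 FPKM with construct 5, at 2.25, 2.58 and 3.07 FPKM with construct 7, and at 7.82, 10.3 and 9.09 FPKM with the non-targeting siRNA. FPKM is a gene's fragment count divided by its transcript length and by the depth of its library. The means were 37.3% and 29.1% of the non-targeting mean with construct 5 and construct 7, and the ranges did not overlap (exact two-sided permutation p = 0.1 for each, the smallest that 3 libraries against 3 allow). Depth, recovered from the spacing of low FPKM values, was 29312121 to 45563539 reads a library. As deposited, the median of all 10794 tested genes lay 0.13 (log2) above the non-targeting libraries with construct 5 and 0.02 above them with construct 7, so changes with construct 5 are set beside that shift. Construct 5 replicate 1 stood furthest from the other libraries in this respect, with a median-ratio factor of 1.11, and values without it are given below. The 12 skeletal muscle markers summed to 68700 to 79300 FPKM with construct 5, 62300 to 80100 FPKM with construct 7 and 75600 to 81300 FPKM with the non-targeting siRNA, none at 0.

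Of the 43 members, 37 had a promoter entry in RefSeq (build GRCm38.p6), with 49 windows of 250 bases upstream of a start. Searched on both strands were the palindromic E-box CAGCTG bound by myogenic bHLH factors, the likewise palindromic MEF2-type site CTANNNNTAG, and the TATA box TATAAA. The MEF2-type letters were in 8.2% of member windows and 3.2% of all 32851 windows, the E-box in 20.4% and 13.0%, and the TATA box in 8.2% and 12.4%. These shares count windows, and windows of the same gene can overlap. The 10 member windows with an E-box belong to 9 genes. Where a TATA box lies inside a MEF2-type match, both were counted. The 4 member windows with a MEF2-type match are printed because of that match, and the level of the gene played no part in the choice. Their genes Klhl41, Klhl33, Kbtbd13 and Kbtbd12 averaged 215, 38.7, 8.95 and 6.69 FPKM in non-targeting muscle. A line at 6 FPKM lies just below the lowest of these, so standing above it is no evidence of a link between match and level. The only window of Klhl9 is printed because its transcript rose with construct 5. The windows of Klhl40, Klhl21, Klhl31, Klhl7, Klhl9 and Klhl34, also above 6 FPKM, had no MEF2-type match, and Klhl30, Klhl24, Klhl8 and Klhl38 were not among the 37. Bases are given 5′ to 3′ toward the start site, and capitals mark the matches.
Klhl41, chr2:69669870-69670119, plus strand: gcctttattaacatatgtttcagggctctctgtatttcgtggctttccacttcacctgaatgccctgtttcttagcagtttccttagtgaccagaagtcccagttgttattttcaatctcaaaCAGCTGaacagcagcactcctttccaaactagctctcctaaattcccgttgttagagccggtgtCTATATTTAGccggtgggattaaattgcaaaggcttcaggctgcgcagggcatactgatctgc
Klhl33, chr14:50897484-50897733, minus strand: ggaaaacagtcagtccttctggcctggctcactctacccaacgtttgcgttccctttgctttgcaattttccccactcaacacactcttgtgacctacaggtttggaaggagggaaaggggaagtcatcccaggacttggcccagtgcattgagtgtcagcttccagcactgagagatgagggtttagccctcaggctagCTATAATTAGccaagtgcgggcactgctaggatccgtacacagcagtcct
Kbtbd13, chr9:65391653-65391902, minus strand: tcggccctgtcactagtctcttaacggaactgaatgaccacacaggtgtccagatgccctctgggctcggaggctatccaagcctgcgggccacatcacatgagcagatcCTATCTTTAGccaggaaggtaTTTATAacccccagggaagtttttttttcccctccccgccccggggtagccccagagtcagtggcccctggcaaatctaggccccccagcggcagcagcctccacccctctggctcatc
Kbtbd12, chr6:88627430-88627679, minus strand: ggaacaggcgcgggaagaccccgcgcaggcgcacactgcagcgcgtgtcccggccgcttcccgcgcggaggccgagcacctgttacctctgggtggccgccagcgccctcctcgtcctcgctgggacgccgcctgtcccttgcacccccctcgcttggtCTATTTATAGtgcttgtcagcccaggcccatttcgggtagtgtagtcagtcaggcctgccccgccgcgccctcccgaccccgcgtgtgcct
Klhl9, chr4:88722509-88722758, minus strand: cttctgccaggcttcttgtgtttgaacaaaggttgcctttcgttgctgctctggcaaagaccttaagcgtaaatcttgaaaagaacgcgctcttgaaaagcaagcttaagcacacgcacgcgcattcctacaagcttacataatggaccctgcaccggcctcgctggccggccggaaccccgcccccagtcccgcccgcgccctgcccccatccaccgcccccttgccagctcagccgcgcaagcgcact

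The MEF2-type match began 63 bases before the start site in Klhl41, 50 in Klhl33, 140 in Kbtbd13 and 91 in Kbtbd12. Klhl41 also had an E-box that began 127 bases before its start. No letters of these motifs were found in the Klhl9 window. Klhl5, which also rose with construct 5, had an E-box in chr5:65107318-65107567 and no match in a further window. Neither Klhl5 window is printed. Klhl33 had a further window without a match. A match is a description of letters in this window and says nothing of binding in these muscles.

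The family was unequal in muscle, and a handful of genes made up most of it. In non-targeting muscle, 7 members averaged at least 10 FPKM and are called abundant here, 23 stood between 1 and 10 FPKM, 12 were above 0 but under 1 FPKM, and 1 was listed at 0. The abundant members were Klhl41, Klhl40, Klhl30, Klhl33, Klhl21, Klhl31 and Klhl24, and together they held 76.4% to 81.8% of the summed FPKM of all members in each of the 9 libraries. Klhl41 alone held 34.6% to 44.2% of it. The sum was 585.5 ± 39.4 FPKM with construct 5, 575.2 ± 33.7 FPKM with construct 7 and 548.9 ± 48.4 FPKM with the non-targeting siRNA (SD, n = 3 each), between 0.0954% and 0.129% of the table's total. Of the 42 neighbouring pairs in the order of non-targeting means, 31 overlapped in their non-targeting ranges, so much of the order is not resolved. Among the abundant members the order is resolved at the top, where the lowest Klhl41 value was above the highest Klhl40 value. It is also resolved between Klhl31 and Klhl24, and between Klhl24 and the rest. Further resolved neighbours lie lower in the order, such as Kbtbd12 and Kbtbd4.

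**Figure D1:**
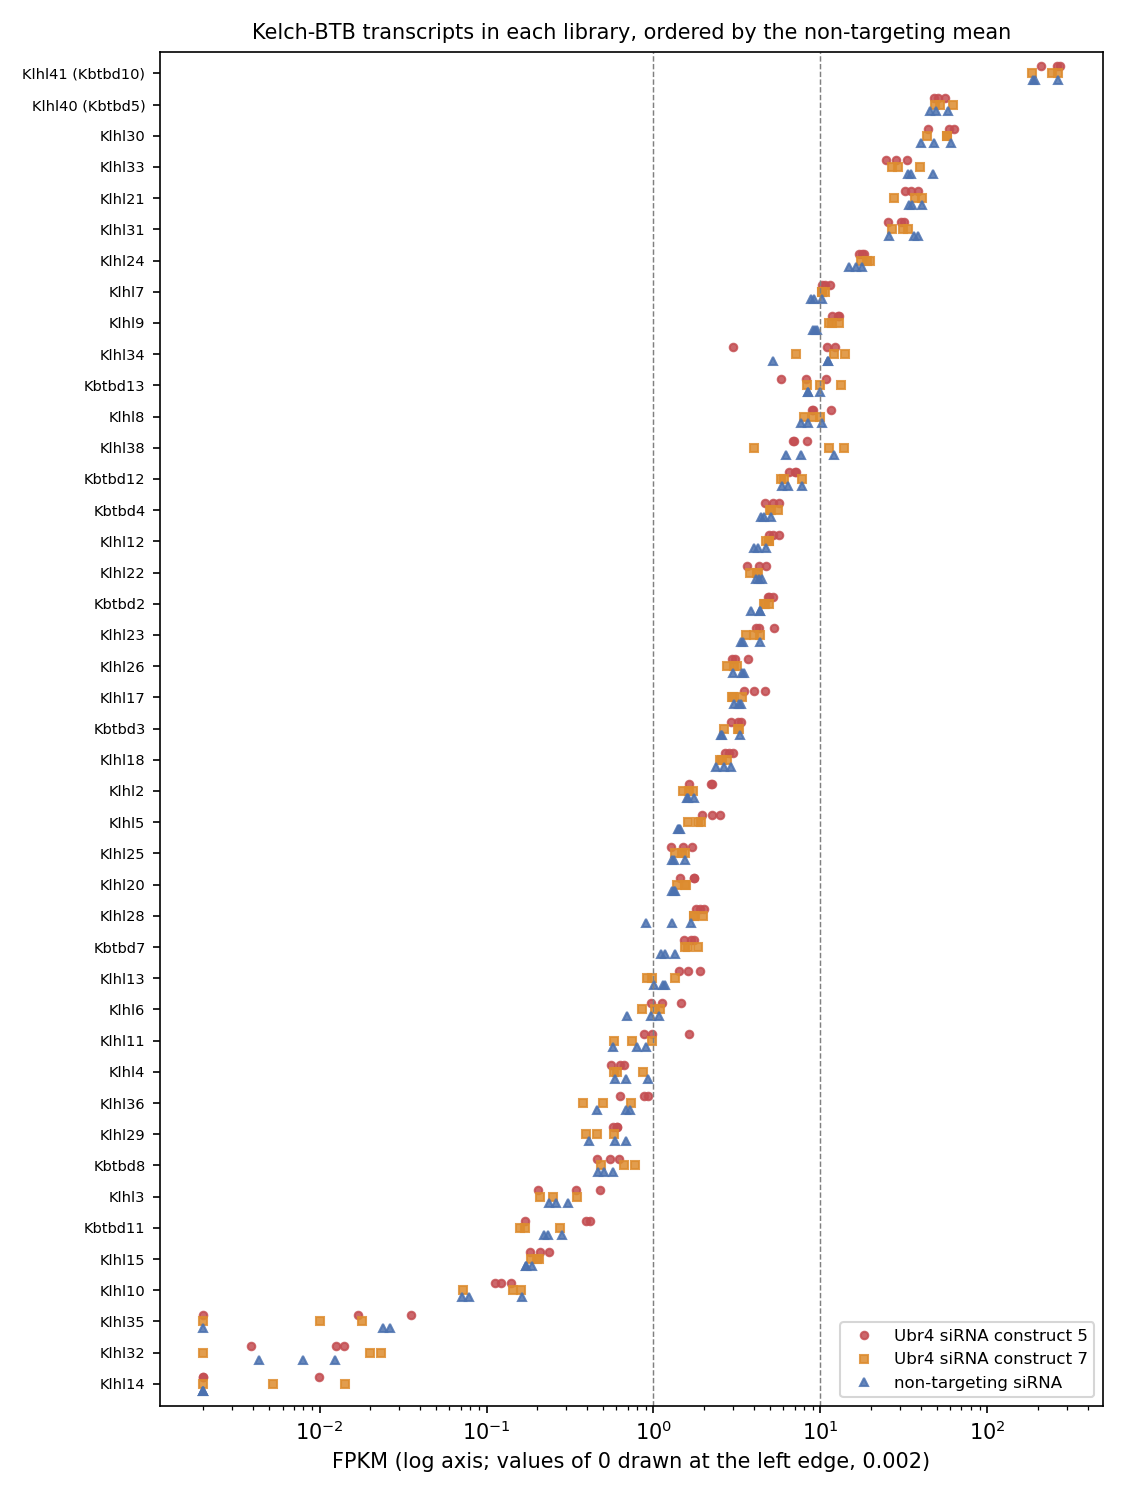
FPKM of all 43 Kelch-BTB transcripts in the 9 libraries on a log axis, ordered by the non-targeting mean, with dashed lines at 1 and 10 FPKM. Klhl41 stands apart at 186 to 271 FPKM, and the siRNA and non-targeting points of most members lie on top of each other.

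Klhl41, Klhl40, Kbtbd13 and Klhl31, each known for a role in muscle structure, did not pass the test with either construct. The deposited table lists Klhl41 under its older name Kbtbd10. Klhl41, which binds nebulin and other thin-filament proteins, had 271, 211 and 261 FPKM with construct 5, 186, 266 and 245 FPKM with construct 7, and 188, 265 and 192 FPKM with the non-targeting siRNA. Its non-targeting mean lay at the 99.0th percentile of all genes above 0. The groups overlapped, with log2 changes on the log2(FPKM + 1) scale of 0.21 (SE 0.172, limma adjusted p = 0.405) for construct 5 and 0.11 (SE 0.172, adjusted p = 0.902) for construct 7.

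Klhl40 (Kbtbd5 in the table), which stabilises nebulin and leiomodin 3, had 55.5, 47.7 and 50.5 FPKM with construct 5, 52.0, 62.1 and 48.8 FPKM with construct 7, and 45.5, 58.1 and 49.2 FPKM with the non-targeting siRNA. The 3 ranges overlapped almost wholly, and the log2 changes were 0.01 (SE 0.116) and 0.09 (SE 0.116) for construct 5 and construct 7. Kbtbd13, the third nemaline myopathy gene of the family, was less abundant, with 5.82, 10.9 and 8.18 FPKM, 13.3, 8.31 and 10.01 FPKM, and 8.46, 8.47 and 9.93 FPKM in the same order of groups. Its libraries differed more within the siRNA groups than between any group means. Klhl31, needed for normal muscle structure in mice, had 30.4, 25.5 and 31.7 FPKM with construct 5, 33.6, 31.5 and 26.7 FPKM with construct 7, and 36.5, 25.6 and 38.2 FPKM with the non-targeting siRNA. Non-targeting replicate 2 was the lowest of its group by more than 10 FPKM, and every siRNA library lay within the non-targeting range or less than 1 FPKM below it.

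The other abundant members have less settled roles in muscle. Klhl30 had 62.8, 44.3 and 59.0 FPKM with construct 5, 43.4, 57.1 and 57.6 FPKM with construct 7, and 48.1, 60.4 and 39.8 FPKM with the non-targeting siRNA. Klhl21, which in dividing human cells directs cullin 3 to Aurora B kinase, had 38.6, 34.9 and 32.3 FPKM, 40.6, 27.5 and 37.1 FPKM, and 35.4, 34.1 and 40.9 FPKM. Klhl24, known in human skin for the turnover of keratin 14, had 17.1, 17.9 and 18.2 FPKM, 18.9, 17.5 and 19.9 FPKM, and 14.8, 16.4 and 17.8 FPKM. In all 3 genes the groups overlapped. Klhl24 was the steadiest abundant member: its SD of log2 values within groups was at percentile 31.2 of tested genes, against percentiles 71.5 to 91.2 for the other 6.

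Klhl33 was the abundant member whose construct 5 and non-targeting libraries did not overlap. It had 24.7, 33.1 and 28.2 FPKM with construct 5, all below the 34.9, 33.5 and 47.6 FPKM of the non-targeting libraries, while construct 7 gave 39.5, 29.2 and 27.0 FPKM. The gap between the highest construct 5 and the lowest non-targeting library was under 1 FPKM. The log2 change was -0.41 (SE 0.174) with construct 5 and -0.27 (SE 0.174) with construct 7, and limma's adjusted p of 0.142 and 0.680 did not pass. Over the 7 abundant members, limma adjusted p-values ran from 0.142 to 0.948 for construct 5, from 0.501 to 0.919 for construct 7 and from 0.574 to 0.931 between the constructs. These misses do not show that levels were equal.

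**Figure D2:**
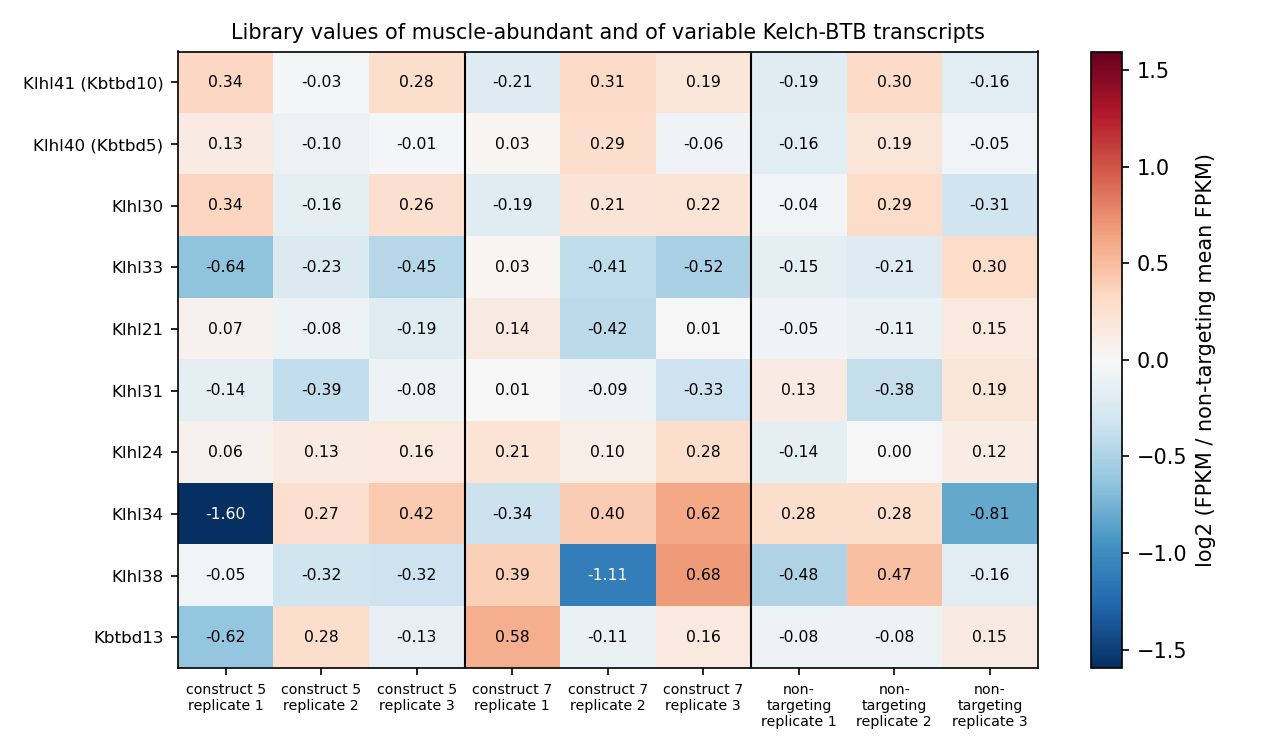
Each cell is the log2 ratio of a library's FPKM to the non-targeting mean of that gene, for the 7 abundant members and for the less abundant Klhl34, Klhl38 and Kbtbd13, whose libraries varied within groups. Klhl34 in construct 5 replicate 1 (-1.60) and Klhl38 in construct 7 replicate 2 (-1.11) are the furthest from 0.

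Among the members between 1 and 10 FPKM, a few varied far more between libraries of a group than between groups. Klhl34, a gene on chromosome X whose protein is encoded in a single exon, had 3.01, 11.0 and 12.2 FPKM with construct 5, 7.19, 12.0 and 14.0 FPKM with construct 7, and 11.1, 11.1 and 5.19 FPKM with the non-targeting siRNA. Construct 5 replicate 1 and non-targeting replicate 3 were low, and the SD within groups lay at the 99.6th percentile of tested genes. The log2 change of -0.17 (SE 0.453) with construct 5 became 0.38 without construct 5 replicate 1. Klhl38 had 8.35, 6.93 and 6.89 FPKM, 11.3, 4.01 and 13.8 FPKM, and 6.20, 12.0 and 7.70 FPKM in the same order of groups. Its highest and lowest values were both with construct 7. In GENCODE M21, 65.4% of its exonic bases are overlapped by the antisense gene Gm15943, and since the strand of the libraries is not given, reads of the pair cannot be told apart. Kbtbd12, another member named above for its promoter, ranged from 5.80 to 7.81 FPKM over all 9 libraries. Its SD of log2 values within groups lay at percentile 72.3 of tested genes.

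Klhl7 and Klhl9 stood near 9 FPKM in non-targeting muscle, with means of 9.38 and 9.29 FPKM, and Klhl8, whose worm counterpart acts on the synaptic protein rapsyn, averaged 8.77 FPKM. Kbtbd4 (4.69 FPKM), Klhl12 (4.32 FPKM), Klhl22 (4.30 FPKM), Kbtbd2 (4.17 FPKM) and Klhl23 (3.72 FPKM) followed. As with Klhl38, genes on the opposite strand overlap 55.6% of the exonic bases of Kbtbd4, 21.6% of Klhl40 and 20.5% of Klhl21. In all, 7 members had more than 10% of their exonic bases overlapped, and their levels may include reads of those genes. Klhl12 ubiquitylates Sec31 of secretory vesicle coats, and Kbtbd2 controls the insulin-signalling subunit p85 alpha in mice. Klhl2, which with Klhl3 removes WNK kinases, averaged 1.65 FPKM, while Klhl3 itself, the kidney member of that pair, was at 0.202 to 0.479 FPKM in all 9 libraries.

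The 12 members under the filter of a mean of 1 FPKM over all libraries reached 1.64 FPKM at most in any library and were not tested. Among them, Klhl10, a testis gene needed for sperm formation, stood at 0.0716 to 0.163 FPKM. Klhl14 was at 0 in all 3 non-targeting libraries, and its highest value, 0.0142 FPKM in construct 7 replicate 1, corresponds to 2 recovered reads. Klhl35 and Klhl32 were also at 0 in at least 1 library, and the other 40 members were above 0 in all 9. Klhl6, known from B lymphocytes, just passed the filter at means of 1.19 FPKM with construct 5, 0.992 FPKM with construct 7 and 0.914 FPKM with the non-targeting siRNA.

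The first comparison set construct 5 against the non-targeting siRNA. Klhl9 and Klhl5 rose, and no member fell by the test. limma called 2 of the 31 tested members (6.45%), both higher, where it called 5.27% of all 10794 tested genes, 4.67% as higher and 0.602% as lower. The members' share is thus near the background. At an unadjusted p under 0.05 there were 11 of the 31 tested members, and 3447 of all 10794 tested genes. The members' median log2 change was 0.15, beside 0.13 for all tested genes, and 16 of the 31 members lay above the median of all genes.

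Klhl9 pairs with Klhl13 in human cells as a cullin 3 adaptor for Aurora B, and a mutation of it causes a distal myopathy in humans. It had 13.0, 12.8 and 11.8 FPKM with construct 5 and 9.24, 9.06 and 9.57 FPKM with the non-targeting siRNA, so every construct 5 library was higher. The mean was 135% of the non-targeting mean, with a log2 change of 0.40 (SE 0.0704, limma adjusted p = 0.0406). Recovered reads numbered 1498 to 2440 with construct 5 and 1130 to 1246 with the non-targeting siRNA, so counting error is small. Klhl9 lies on chromosome 4 with a single coding exon, and 15.8% of its exonic bases are overlapped by Gm26566 on the opposite strand.

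Klhl5, on chromosome 5, was much less abundant. It had 2.25, 2.51 and 1.94 FPKM with construct 5 and 1.42, 1.40 and 1.44 FPKM with the non-targeting siRNA, again without overlap. The mean was 157% of the non-targeting mean, and the log2 change was 0.41 (SE 0.0825, limma adjusted p = 0.0406). It shares no 50-base run with any other annotated gene.

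Both calls stood close to the threshold. With median-ratio scaling, which removes the shift of 0.13, the log2 changes were 0.26 for Klhl9 and 0.32 for Klhl5, and the adjusted p-values of 0.0778 and 0.0741 no longer passed, when 0.723% of all genes were called. Without construct 5 replicate 1 the log2 changes were 0.37 and 0.41 with adjusted p-values of 0.138 and 0.139, and over all alternatives the adjusted p ranged from 0.0354 to 0.219 for Klhl9 and from 0.0354 to 0.204 for Klhl5.

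Among the members that were neither abundant nor called, the 3 with the largest log2 changes with construct 5 did not pass. Klhl28 had 1.91, 2.02 and 1.79 FPKM with construct 5 and 0.897, 1.29 and 1.69 FPKM with the non-targeting siRNA (log2 change 0.36, adjusted p = 0.0862). Klhl13, the partner of Klhl9, had 1.60, 1.90 and 1.42 FPKM against 1.01, 1.17 and 1.14 FPKM (0.32, adjusted p = 0.0783). Kbtbd7, which with Kbtbd6 acts on the Rac activator Tiam1 in human cells, had 1.67, 1.76 and 1.53 FPKM against 1.12, 1.18 and 1.35 FPKM (0.26, adjusted p = 0.0706). In each the 3 construct 5 libraries were above all 3 non-targeting libraries, and 16.2% of the 50-base runs of Kbtbd7 also occur in Kbtbd6. In all, 10 members had construct 5 libraries entirely above the non-targeting ones (32.3% of the tested members, beside 33.0% of all tested genes) and 1 entirely below (3.23%, beside 5.19%). The other members above were Klhl7, Klhl12, Kbtbd2, Klhl17 and Klhl20, and the one below was Klhl33.

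Summed marker RNA of some other cell types differed between these groups. The calls with construct 5 are to be read beside the 5.27% of all tested genes called there. The 16 macrophage markers in the table summed to 242 to 426 FPKM with construct 5, 115 to 189 FPKM with construct 7 and 144 to 211 FPKM with the non-targeting siRNA. All 14 tested markers of that list had log2 changes above 0 with construct 5, and Gpnmb, Lgals3 and Lyz2 passed the test. Lyz2 alone averaged 173 FPKM with construct 5, so it weighs heavily in the sum. The 10 fibroblast markers summed to 783 to 1100 FPKM with construct 5, 456 to 572 FPKM with construct 7 and 589 to 692 FPKM with the non-targeting siRNA, and Col1a2 passed with construct 5. All 10 had log2 changes above 0 with construct 5, and 0 of them did with construct 7. The 10 myogenic markers summed to 126 to 210 FPKM, 94.6 to 156 FPKM and 77.0 to 90.5 FPKM in the same order of groups, and none passed. Myf6 alone averaged 84.2 FPKM with construct 5, a large part of that sum. All 8 tested myogenic markers had log2 changes above 0 with both constructs. The 10 lymphocyte markers summed to 2.54 to 4.71 FPKM, 1.77 to 3.41 FPKM and 1.60 to 1.79 FPKM, and Ptprc rose with construct 5. Ptprc alone averaged 2.165 FPKM with construct 5 and 0.999 FPKM with the non-targeting siRNA, a large part of those sums. It was the only marker of that list that was tested, so the sums do not show a rise of lymphocytes. Endothelial, Schwann cell and erythroid lists had no called member in any comparison. No marker of these lists was at 0 in all 9 libraries. The part of these cells in the changes of Klhl9 and Klhl5 was not tested, and in whole muscle a change in the number of cells and a change of RNA per cell cannot be told apart.

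**Figure D3:**
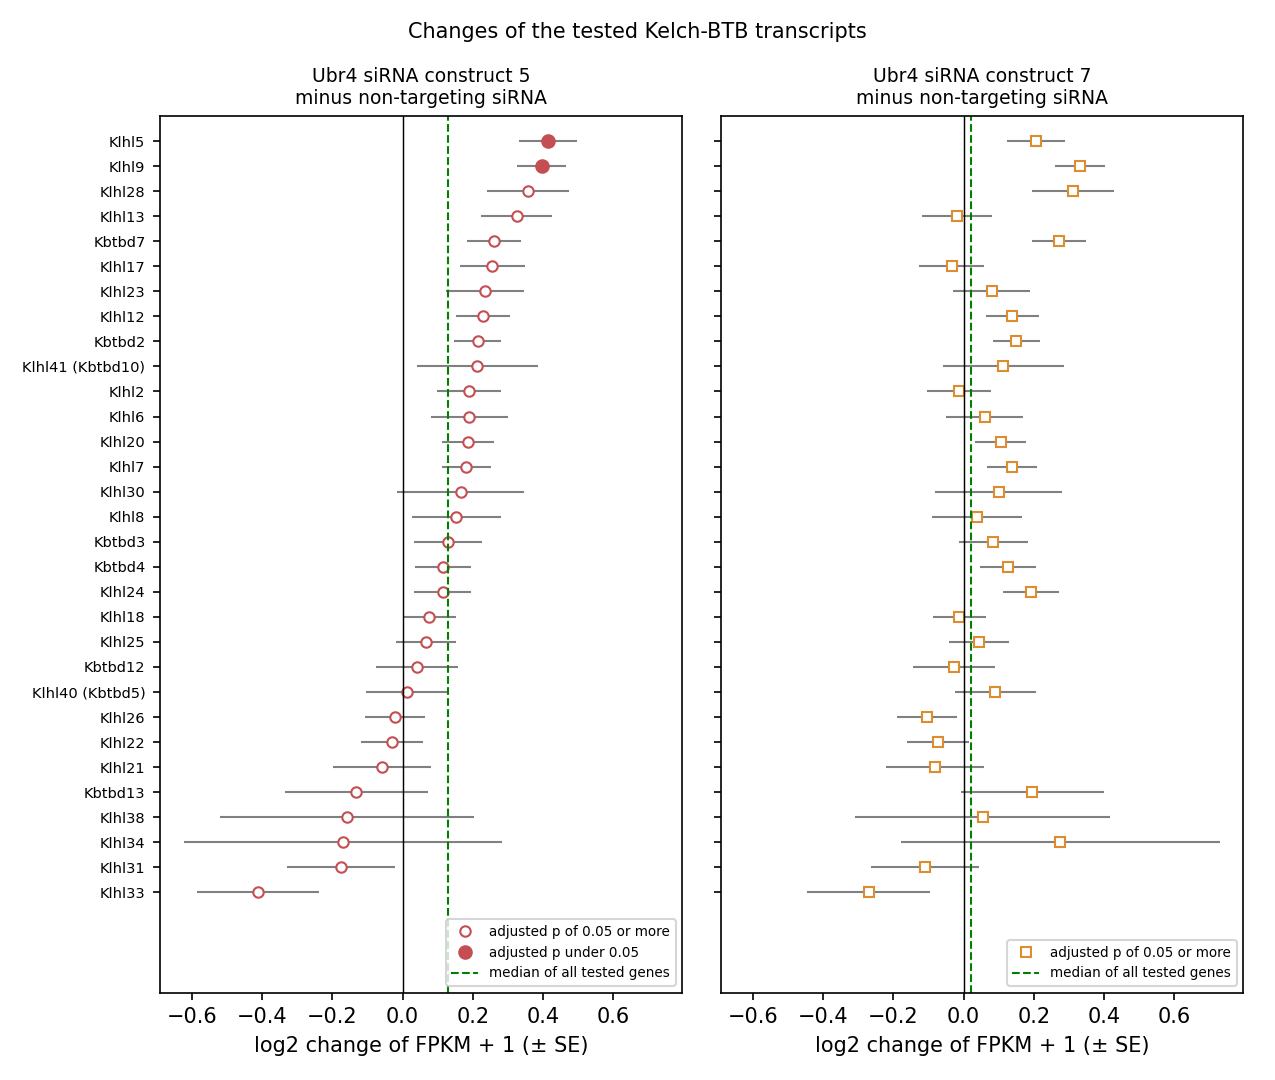
Log2 change of FPKM + 1 (± SE) of the 31 tested members for construct 5 minus non-targeting siRNA (left) and construct 7 minus non-targeting siRNA (right), with filled points for an adjusted p under 0.05 and a dashed line at the median of all tested genes. Klhl5 and Klhl9 are the only filled points. Both panels use the same non-targeting libraries.

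The same question was asked of construct 7, against the same 3 non-targeting libraries. No member passed: limma called 0 of 31, where it called 0.0556% of all tested genes, all of them lower. At an unadjusted p under 0.05 there were 5 of the 31 tested members and 1022 of all 10794 tested genes, and voom on recovered reads also called 0 members. The members' median log2 change was 0.08, beside 0.02 for all tested genes, with 21 members above 0 and 10 below.

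Klhl9 had 11.7, 11.3 and 12.9 FPKM with construct 7, against 9.24, 9.06 and 9.57 FPKM with the non-targeting siRNA, with no overlap. Its log2 change of 0.33 (SE 0.0704) had an unadjusted p of 0.00098 and an adjusted p of 0.259. Klhl5 had 1.61, 1.92 and 1.85 FPKM with construct 7, against 1.42, 1.40 and 1.44 FPKM, and its log2 change of 0.21 (SE 0.0825) had an adjusted p of 0.476. Both genes were thus above every non-targeting library in 3 of 3 construct 7 libraries without a call. Klhl28 had 1.74, 1.74 and 1.97 FPKM with construct 7 (log2 change 0.31, adjusted p = 0.431) and Kbtbd7 1.61, 1.55 and 1.86 FPKM (0.27, adjusted p = 0.333), against the non-targeting values above. Klhl34, the other member with a large change (0.28, adjusted p = 0.907), overlapped with the non-targeting range. There were 7 members with construct 7 libraries entirely above the non-targeting ones, 22.6% of the tested members beside 10.5% of all tested genes, and 0 entirely below, beside 6.26%. They were Klhl9, Klhl5, Klhl28, Kbtbd7, Klhl7, Kbtbd2 and Klhl20, each of which was also above in construct 5; since the control libraries are shared, the pair of comparisons is not independent.

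**Figure D4:**
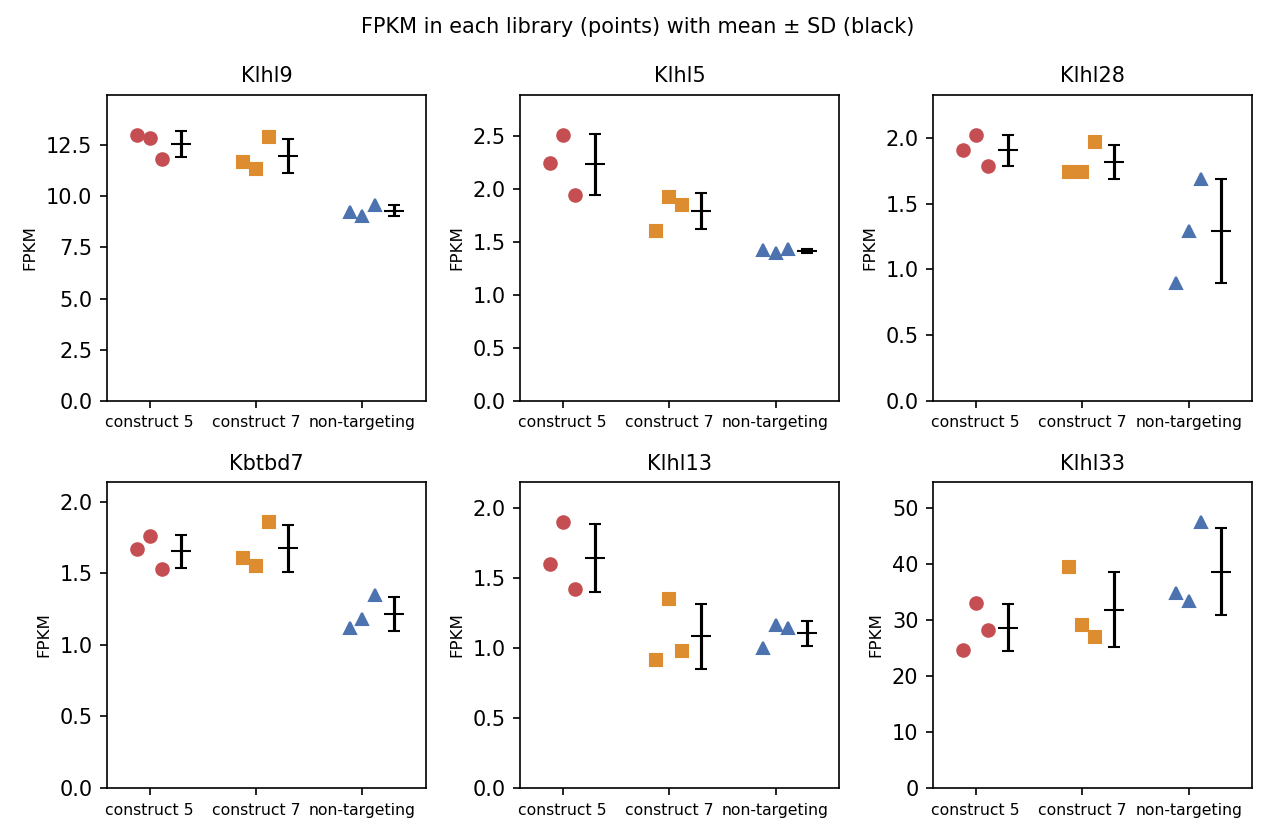
FPKM in each of the 9 libraries (points, replicates 1 to 3 from left to right) with mean ± SD of each group (black) for the 2 called members, the 3 largest changes with construct 5 among members neither abundant nor called, and the abundant Klhl33. Klhl9 and Klhl5 lie above all non-targeting points with both constructs, and Klhl13 lies above them with construct 5 while overlapping them with construct 7.

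The constructs were compared with each other directly. No member passed: limma called 0 of 31, where it called 1.22% of all tested genes. Unadjusted p was under 0.05 in 3 of the 31 tested members and in 2491 of all 10794 tested genes, and voom called 0 members. The smallest p was that of Klhl13, with 0.918, 1.35 and 0.983 FPKM with construct 7 and 1.60, 1.90 and 1.42 FPKM with construct 5. All construct 7 libraries were below the construct 5 libraries, and the log2 difference was -0.34 (SE 0.1004, adjusted p = 0.104); without construct 7 replicate 2 its adjusted p was 0.0489. In the same comparison the macrophage markers Lyz2, Cd14 and Gpnmb and 5 of 10 fibroblast markers passed as lower, and their part in this difference was not tested. Klhl13 lies on chromosome X, and its recovered reads were 124 to 221 with construct 7 and 184 to 369 with construct 5. Klhl17 and Klhl5 were the other members with construct 7 entirely below construct 5, so 3 members in all (9.68%, beside 22.4% of all tested genes), and 0 were entirely above, beside 3.02%. For Klhl5 the difference was -0.21 (SE 0.0825, adjusted p = 0.180) and for Klhl9 -0.06 (SE 0.0704, adjusted p = 0.593), so the change of neither was shown to differ between constructs.

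No gene of the shared parts of the ligase passed the test. Cul3 itself had 45.7, 43.1 and 45.9 FPKM with construct 5, 51.0, 44.1 and 49.2 FPKM with construct 7, and 48.9, 49.6 and 56.4 FPKM with the non-targeting siRNA. All 3 construct 5 libraries were below the non-targeting range, which also held for 5.19% of all tested genes. The log2 change of Cul3 was -0.19 (SE 0.0818, limma adjusted p = 0.141). Rbx1, the RING subunit, averaged 41.7 ± 2.85 FPKM, 42.3 ± 2.11 FPKM and 40.5 ± 2.24 FPKM (SD, n = 3 each) in the same order of groups. Of 24 genes of the cullin 3 core and its control (cullin 3, Rbx1, the NEDD8 pathway, the exchange factors Cand1 and Cand2 and the COP9 signalosome), 0 passed in any comparison, and their median log2 change was 0.032 with construct 5 and 0.055 with construct 7, beside the same 0.13 and 0.02 for all tested genes. Of all tested genes, 5.27% were called with construct 5, 0.0556% with construct 7 and 1.22% between the constructs. With shares this small, 0 of 24 does not set the core apart. The smallest p among them with construct 5 was that of Dcun1d2, a NEDD8 ligase cofactor, at 23.2 ± 2.31 FPKM against 32.1 ± 3.08 FPKM (log2 change -0.45, adjusted p = 0.0558).

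The lists of other cullins, other BTB adaptors and known partners had 5 calls with construct 5, to be read beside the 5.27% of all tested genes called there. Cul1, the scaffold of the F-box ligases, fell to 16.6, 16.6 and 16.1 FPKM with construct 5, against 20.2, 20.5 and 21.7 FPKM with the non-targeting siRNA (log2 change -0.32, adjusted p = 0.0406), the only call among 9 other cullins and their cofactors. With construct 7 it had 21.6, 21.8 and 20.3 FPKM, and the difference between constructs passed (0.35, adjusted p = 0.0391). Among 23 tested genes of other BTB adaptors, Ivns1abp (31.0 ± 1.68 FPKM with construct 5 and 23.5 ± 0.724 FPKM with the non-targeting siRNA, adjusted p = 0.0406) and Rhobtb1 (3.71 ± 0.167 FPKM and 2.48 ± 0.180 FPKM, adjusted p = 0.0418) rose. Keap1, the Kelch adaptor that holds the oxidative stress factor Nfe2l2 in check, averaged 15.8 ± 1.03 FPKM with construct 5 and 16.1 ± 1.26 FPKM with the non-targeting siRNA (SD, n = 3 each, adjusted p = 0.887).

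Among 28 tested genes of reported substrates or partners of the family, Nfe2l2, the substrate of Keap1, and Eif4ebp1, a translation repressor that Klhl25 targets in human cells, rose with construct 5. Nfe2l2 had 11.7, 11.2 and 11.3 FPKM with construct 5, 9.60, 10.1 and 9.89 FPKM with construct 7, and 8.57, 7.34 and 7.83 FPKM with the non-targeting siRNA (log2 change 0.48 with construct 5, adjusted p = 0.0344, and 0.29 with construct 7, adjusted p = 0.278). Eif4ebp1 averaged 41.1 ± 3.81 FPKM with construct 5 and 28.1 ± 2.38 FPKM with the non-targeting siRNA (log2 change 0.53, adjusted p = 0.0409). The median log2 change of the partners was 0.215 with construct 5, beside 0.13 for all tested genes, and 0.089 with construct 7, beside 0.02. Of these 5 genes, Cul1 kept its call with median-ratio scaling and the other 4 lost theirs, and over all alternatives the adjusted p of Cul1 ran from 0.024 to 0.138. Of 14 nemaline myopathy genes, 3 of which are members, 0 passed with either construct, beside 5.27% (construct 5) and 0.0556% (construct 7) of all tested genes. The binding partners Neb and Lmod3 averaged 223 ± 10.3 FPKM and 87.0 ± 14.0 FPKM with construct 5, 214 ± 9.06 FPKM and 95.4 ± 16.9 FPKM with construct 7, and 203 ± 37.5 FPKM and 76.4 ± 12.6 FPKM with the non-targeting siRNA.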

How the data were processed

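RNA-seq of 9 libraries was deposited as a table of FPKM values, which the authors made with HTSeq, STAR and BWA, the genome build being mm9, per the submitters' processing notes; versions and the part each tool played are not given in the sources used here. Members were matched by name, and older names (Kbtbd10, Kbtbd5) were resolved by gene ID in GENCODE M21 (42 of 43 matched, not Klhl17). Genes with a mean of at least 1 FPKM over the 9 libraries (10794, of them 31 members) were fitted as log2(FPKM + 1) with limma 3.58.1 in R 4.3.3 (3 groups, eBayes with trend), and Benjamini-Hochberg adjusted p under 0.05 over all tested genes was called. A fold change on this scale understates the change of low genes.

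Depth was recovered from FPKM steps with GENCODE exon lengths, 71.8% to 74.1% of values under 50 reads being whole within 0.1 reads, and served for read numbers and for voom, an alternative chosen after the data were seen. Counting error alone is covered by such read numbers. Shared sequence was counted as 50-base runs. Promoter letters came from RefSeq, GRCm38.p6. Python 3.11.15, pandas 2.3.3, numpy 2.4.6 and matplotlib 3.10.9 were used, and the fit was tested on simulated data.

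Abundant members (at least 10 FPKM in non-targeting muscle), called members and, among the rest, the 3 largest changes per construct were named by rule, as were the lists' members of smallest p. Klhl38, Kbtbd13, the low members and those with groups that do not overlap were named after their values were seen. The members, lists and tests were chosen with earlier results of these data known. Alternatives were a replicate block, the 6 libraries of each contrast by themselves, totals set to 1000000, median-ratio scaling, filtering at 5 FPKM or not at all, a pseudocount of 0.5 or 0.1, and each library left out in turn.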

Additional observations from a re-analysis of the deposited data

How the results depend on the processing

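The 2 member calls with construct 5 remained under pseudocounts of 0.1 and 0.5, totals of 1000000 and voom. They numbered 0 with no filter, 0 with median-ratio scaling with or without construct 5 replicate 1, and 1 (Klhl9) with a filter at 5 FPKM or the 6 libraries alone. Leaving out each library in turn gave 0 to 2, with 0 without any one non-targeting library, construct 5 replicate 1 or 2, or construct 7 replicate 3. All genes called ranged from 1 to 1024 over these alternatives beside 569, and the cause was not tested.

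Same-numbered libraries did not deviate together (correlations from -0.364 to 0.313), so the labels' numbers were not taken as pairs; with the replicate block 0 members were called with construct 5 (adjusted p of 0.0537 for Klhl9 and 0.0553 for Klhl5) and 11 genes in all. Median-ratio scaling and the replicate block each left 0 members called with construct 7 and between the constructs, as in the main analysis, and leaving out a library gave 0 to 1 between the constructs (Klhl13, without construct 7 replicate 2). Genes called in all ranged from 0 to 7 with construct 7, beside 6, and from 3 to 387 between the constructs, beside 132. Ubr4 lost its calls with no filter (log2 change -1.20 with construct 5, adjusted p = 0.0523, and -1.47 with construct 7, adjusted p = 0.0976). Leaving out a library gave -1.29 to -1.09 and -1.56 to -1.38. Its calls were also lost without non-targeting replicate 2 (adjusted p = 0.0629 with construct 5 and 0.0598 with construct 7) or replicate 3 (0.0941 and 0.0877), with construct 5 without its replicate 1 (0.0956), and with construct 7 without its replicate 2 (0.0736). The abundant members numbered 14 at totals of 1000000 and 14 at a threshold of 5 FPKM, beside 7.

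Among the named members, signs turned only where the change had no call. With construct 5 and median-ratio scaling, Klhl40 turned to -0.13 and Klhl24 to -0.0252, and without construct 5 replicate 1 as well, Klhl40 turned to -0.16, Klhl30 to -0.0496 and Klhl34 to 0.27. Klhl21 turned to 0.0016 with totals of 1000000. With construct 7 minus construct 5, Klhl9 turned to 0.0469 with median-ratio scaling, also without construct 5 replicate 1 (0.0466). Leaving out a library gave -0.0632 to 0.11 for Klhl40, -0.12 to 0.0173 for Klhl21 and -0.49 to 0.38 for Klhl34 with construct 5. With construct 7 it gave -0.0087 to 0.19 for Klhl40, -0.11 to 0.0377 for Klhl13, -0.19 to 0.0789 for Klhl21, -0.0433 to 0.25 for Klhl30 and -0.0457 to 0.53 for Klhl34. Members under 1 FPKM rest on few reads and were not tested.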
